A study of Capsella orientalis and Capsella grandiflora with 23 samples.

Results

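Genomic imprinting leaves a gene read mainly from the copy inherited from one parent. In flowering plants it is known chiefly from the endosperm, the seed tissue that feeds the embryo, and genes read mainly from the mother's copies are called maternally expressed genes. An endosperm cell holds 2 maternal genomes for each paternal 1, so a gene without parental bias gives 66.7% maternal reads, a share called the dosage here.

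The maternally expressed genes of Capsella orientalis described here are 87 genes, out of 3005 genes with enough allele-specific reads, 8844 with any informative SNP in this species and 23185 in all 4 deposited tables. They were selected on measured values: reads were summed over both C. orientalis tables, and a gene had to hold at least 20 reads and a maternal share of at least 80% in each direction of the reciprocal cross. These genes made up 2.90% of the 3005. The high C. orientalis shares are therefore a description and no finding. The selection fixed only in part how far the separate replicates and the separate SNPs of a gene agreed. It did not fix what the same genes did in C. grandiflora, whose reads took no part in it.

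The series measured endosperm RNA in crosses within C. orientalis, a self-fertilising species, and within C. grandiflora, an outcrossing relative. C. orientalis accessions A and B were crossed in both directions (AxB and BxA), and the 8 RNA samples are replicates and repeat sequencing runs of these crosses. C. grandiflora accessions were crossed as AxB and BxA and as CxD and DxC, the latter sequenced in 2 runs, which gives 6 RNA samples. In all crosses the mother was emasculated and pollinated by hand, and endosperm of 300 to 500 seeds per sample was dissected 6 days after pollination. No treatment or altered allele is named for any group. Leaf genomic DNA (4 C. grandiflora and 2 C. orientalis samples) and bisulfite-treated leaf DNA (1 and 2 samples) were not analysed here.

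Each table has maternal and paternal read counts for directions 1 and 2, with no sample name. The tables do not tie a direction to the accession used as mother, and nothing says that replicates came from separate plants, so their spread may be partly technical. The C. orientalis tables are called replicate 1 and replicate 2, after the numbers in their names and the replicates of the series design, and the C. grandiflora tables pair 1 and pair 2. Whether a replicate is a separate library or a repeat run is not stated. C. orientalis directions held 208132 to 596843 informative reads, C. grandiflora pair 1 held 9378895 to 9508567, and pair 2 held 601511 to 1099158. Replicate 1 direction 2 of C. orientalis was the thinnest library. In bulk tissue, fewer cells of a type and less RNA per cell cannot be told apart. Genes are identified by scaffold interval alone, in an assembly build that the sources used here do not name, so neither gene roles nor markers of endosperm or seed coat could be looked up, and the labelled tissue was not checked. The name maternally expressed genes therefore rests on read shares alone. Imprinting and RNA carried over from the mother's seed coat could not be told apart here.

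The 87 genes were read more thinly than the average readable gene. They held 20 to 1022 reads in direction 1 (median 74) and 20 to 603 in direction 2 (median 54), against medians of 106 and 73 over the 3005 genes. Together they took 0.961% to 1.15% of the informative reads of a C. orientalis library. Of these genes, 30 had under 30 reads in their thinner direction, and 20 had at least 100 in both. For 67 genes the lower bound of the 95% Wilson interval lay above the dosage in both directions, and for 20 it did not. Intervals here cover counting error only, since reads without molecular identifiers are not independent molecules and a read over several SNPs is counted at each.

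Within the set, the maternal share ran from the threshold to complete. Its median was 88.5% in direction 1 and 90.9% in direction 2, against 65% and 68.2% over the 3005 genes. In 25 genes the share was at least 90% in both directions, in 15 at least 95%, and in 4 no paternal read was seen. At the other end, 38 genes had a smaller share of 80% to 85%. A further 84 readable genes fell just short, with a smaller share of 75% to under 80%. The share differed between the directions by a median of 3.62 points in the 87 genes, and 51 were higher in direction 2 and 32 in direction 1.

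**Figure D1:**
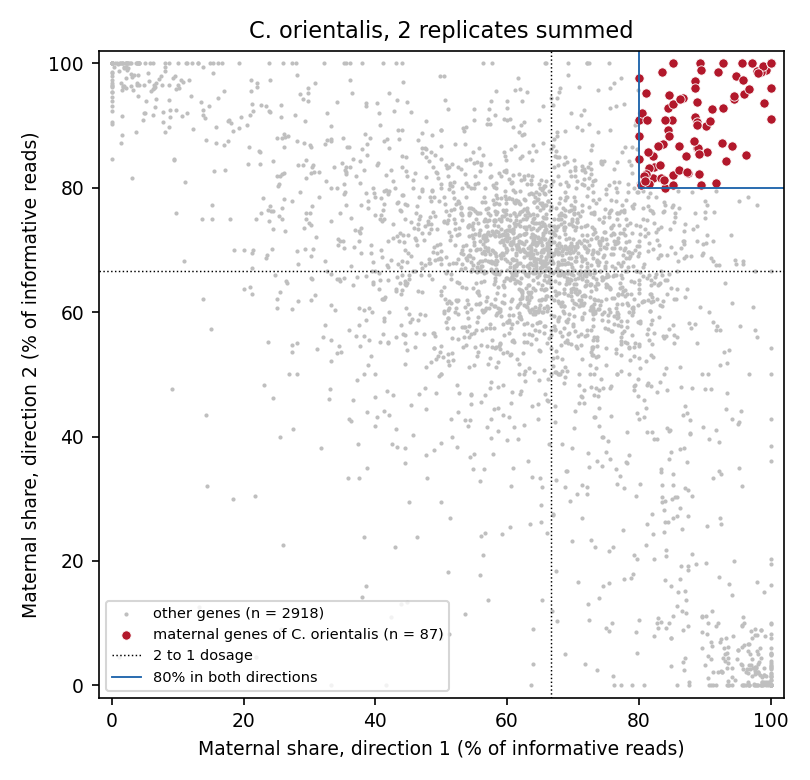
Maternal share (percent of informative reads) in direction 1 (x axis) and direction 2 (y axis) of the C. orientalis cross, both tables summed, for each gene with at least 20 reads in each direction. Red points are the 87 selected genes, grey points the other readable genes, dotted lines the dosage of 66.7% and blue lines the threshold of 80% that selected the red points.

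The 10 genes with most C. orientalis reads show the range of the set. Read counts at SNPs depend on how many SNPs a gene has and where, so they are depth and not expression level. A plus-strand gene of scaffold 1 (4155070 to 4156370) was read almost wholly from the mother, with 441 of 444 reads in direction 1 and 562 of 568 in direction 2, all at 1 exonic SNP. On scaffold 5, a minus-strand gene (13454774 to 13456165) gave 165 of 167 and 466 of 468 maternal reads. On scaffold 8, a minus-strand gene (5893158 to 5897979) gave 34 of 35 and 519 of 519. In these 3 genes the paternal allele was nearly absent from the reads at a single exonic SNP.

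Others among the most deeply read genes kept a measurable paternal part. The gene with most reads, on scaffold 3 (4851456 to 4853543, plus strand), had maternal shares of 98.9% (95% Wilson interval 98.1% to 99.4%) in direction 1 and 93.7% (91.1% to 95.5%) in direction 2, over 17 SNPs. In direction 2 its exonic SNP at 4852312 gave 35 of 50 maternal reads, and its SNPs outside exons gave 0 of 10. Its other exonic SNPs read in that direction gave 90.9% to 100%, so its lower share there rested mostly on a few SNPs. A minus-strand gene of scaffold 2 (3275667 to 3277406) had 95.9% and 95%, and a minus-strand gene of scaffold 8 (7159828 to 7162046) had 92.7% and 92.8%. A minus-strand gene of scaffold 2 (827742 to 829350) had 86.6% (83.3% to 89.4%) and 94.4% (92.2% to 95.9%). The intervals of the 2 directions do not overlap for the scaffold 3 gene or for the last of these. A plus-strand gene of scaffold 6 (15310118 to 15316409) had 87.1% and 85.1%, and overlaps a listed gene on the other strand, whose reads an unstranded library cannot separate.

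Among the genes without a paternal read, a plus-strand gene of scaffold 5 (6015323 to 6016372) had the most reads, with 130 of 130 and 162 of 162 maternal at 3 exonic SNPs. It was picked out after its values were seen. Its 95% Wilson intervals began at 97.1% and 97.7%. With a limit of 3 paternal reads for a count of 0, the maternal share could be down to 97.7% and 98.1% at that depth. A plus-strand gene of scaffold 6 (7140391 to 7146417) gave 59 of 59 and 76 of 76, with Wilson intervals from 93.9% and 95.2% and, by the same limit of 3 reads, shares down to 94.9% and 96.1%.

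In the direction nearest the threshold, genes on either side of it lay within counting error of each other. Just inside were a minus-strand gene of scaffold 1 (458891 to 461279) with 32 of 40 and 20 of 22 maternal reads, and a minus-strand gene of scaffold 2 (12597667 to 12601320) with 63 of 75 and 20 of 25. The third was a plus-strand gene of scaffold 5 (6012082 to 6013096) with 612 of 765 and 427 of 484. Just outside were 2 genes on scaffold 5, at 515223 to 517649 (449 of 562 and 451 of 558) and at 9502486 to 9504852 (99 of 124 and 89 of 93). A gene on scaffold 4 (2490360 to 2493236) followed with 71 of 89 and 44 of 51. All 3 outside genes are on the plus strand.

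The first measure, which the summed rule fixed only in part, is how the replicates compared. Gene totals differed between them with a chi-square per degree of freedom of 22.4 in direction 1 and 8.2 in direction 2. A read counted at several SNPs can raise these values, though not in genes with 1 SNP. Whether the replicates were separate libraries or repeat runs was not tested. Only 26 of the 87 genes had at least 20 reads in all 4 C. orientalis directions. All 26 lay above the dosage in all 4, 21 of them were at or above 80% in all 4, and 11 at or above 90%. Read one library at a time, 62 of 70 readable genes reached 80% in replicate 1 direction 1, 26 of 30 in replicate 1 direction 2, 56 of 67 in replicate 2 direction 1 and 67 of 71 in replicate 2 direction 2. Shares below the dosage were seen in 1 gene in the first of these and in 2 genes in the third. The reads counted here also selected the genes, so high shares in each replicate were partly fixed by the rule. These counts are a description, and the same counts were not made over all readable genes.

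Over the genes readable in each direction, the share moved more between replicates in direction 1 than in direction 2. The directions were not compared on the same genes, since fewer were readable in the thin replicate 1 direction 2. How much of the contrast comes from this was not tested. In direction 1, 56 genes were readable in both replicates and differed by a median of 8.3 points, with 34 within 10 points. In direction 2, 29 genes were readable and differed by a median of 2.68 points, with 27 within 10 points. All readable genes differed by medians of 10.7 points (2318 genes) and 6.42 points (1379 genes), and 48% and 67.2% of them lay within 10 points. Since the replicates together selected the genes, this comparison is a description.

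**Figure D2:**
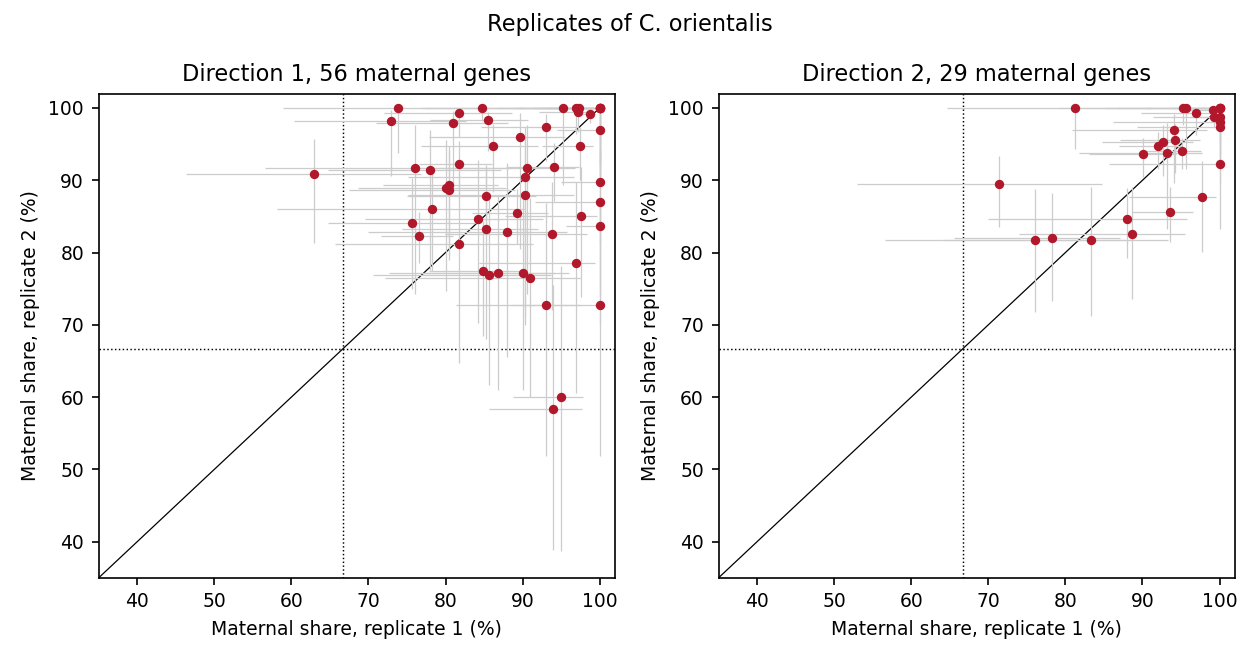
Maternal share (percent) of the selected genes in C. orientalis replicate 1 (x axis) against replicate 2 (y axis), for direction 1 (56 genes) and direction 2 (29 genes) with at least 20 reads in both replicates. Grey bars are 95% Wilson intervals, the diagonal marks equal shares and dotted lines the dosage of 66.7%. Points scatter more widely in direction 1, where 3 lie below the dosage in one replicate.

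The 3 genes with the widest gaps between replicates passed in neither replicate alone. A plus-strand gene of scaffold 7 (10937351 to 10939600) gave 63 of 67 maternal reads in replicate 1 direction 1 and 14 of 24 in replicate 2, a gap of 35.7 points. Its direction 2 gave 11 of 11 and 19 of 23. A plus-strand gene of scaffold 7 (16043956 to 16056163) gave 95 of 100 and 12 of 20 in direction 1, and 6 of 7 and 29 of 34 in direction 2. A minus-strand gene of scaffold 7 (2418145 to 2420628) went the other way, with 22 of 35 in replicate 1 and 59 of 65 in replicate 2. Its direction 2 gave 14 of 16 and 29 of 37. In each of the 3, the Wilson intervals of the 2 replicates do not overlap in direction 1.

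Selecting on 1 replicate and reading the other keeps the choice and the reading apart. Replicate 1 alone selected 38 genes, of which 37 were readable in replicate 2, and 21 of these (56.8%) passed there, where 3.86% of all readable genes passed. Replicate 2 alone selected 93 genes, of which 39 were readable in replicate 1, and 21 (53.8%) passed there, against 2.76% of all readable genes. The 21 are the same genes in both readings by construction. Counting these 21, 26 of the 37 (70.3%) lay above the dosage in both directions of replicate 2, against 24.1% of all genes, and 26 of the 39 (66.7%) in both directions of replicate 1, against 17.3%. Both replicates come from crosses of the same pair of accessions.

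The second measure was the SNPs within a gene. The 87 genes rested on few: 50 of them (57.5%) had a single informative SNP, against 37.4% of the 3005 readable genes. In all they held 207 SNPs, 159 in annotated exons and 48 in the gene interval but outside annotated exons. Every one of the 87 genes had an exonic SNP, 66 had no other kind, and 21 had both, whereas 9.48% of the readable genes had SNPs outside exons only. On exonic SNPs alone, 83 of the 84 genes that kept enough reads still passed. For the 66 genes with no other kind of SNP this outcome was fixed by the rule. On the other SNPs alone, 4 genes had enough reads and 1 passed.

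The rule fixed the share of a gene's only SNP, so agreement between SNPs can be read only in genes with several. In these, 100 SNPs had at least 20 reads over both directions, and 89 of them were at least 80% maternal. Among the exonic ones 85 of 92 reached 80%, and among the others 4 of 8. The rule still acted on the sum of these SNPs, so the counts are a description. Below the dosage lay 7 SNPs, in 5 genes. Of 31 genes with at least 2 such SNPs, 22 had all of them at or above 80%. Summed over the set, exonic SNPs were 90.5% and 93.7% maternal in directions 1 and 2 (10302 and 9077 reads). The other SNPs were 82.2% and 52.6% maternal (460 and 171 reads). Without the gene on scaffold 5 at 6012082, which held more of these reads than any other gene, the other SNPs were 77.3% and 75.9% maternal (361 and 108 reads).

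In that gene, single SNPs stood far apart from the others. Its share was 80% in direction 1 and 88.2% in direction 2, but 4 of its 6 SNPs, all exonic, were 98.7% to 100% maternal over both directions. The exonic SNP at position 6012953 gave 11 of 160 maternal reads in direction 1 and 70 of 71 in direction 2. The SNP at 6012417, outside annotated exons, did the reverse, with 99 of 99 in direction 1 and 8 of 63 in direction 2. At these 2 SNPs nearly all reads of only one direction were counted to the mother, and at the other 4 nearly all reads of both.

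Over the 11 genes with at least 20 reads in both SNP classes the exonic share was higher in 6 and lower in 5, with a median difference of 0.3 points and a range from -16.2 to 62.9. The 3 genes with the widest gap had the lower share outside exons. On scaffold 6 a gene (15151835 to 15152991, minus strand) was 93.1% maternal over 621 exonic reads and 30.2% over 43 other reads. Its exonic SNPs at 15151918, 15151951, 15151966 and 15152008 lay between 94.7% and 98.1%, while the exonic SNP at 15151844 gave 36.8% and the SNP at 15152126, outside exons, gave 0 of 27 and 6 of 6. A minus-strand gene of scaffold 7 (10948947 to 10950732) was 90.4% maternal over 249 exonic reads and 42.6% over 47 other reads. A plus-strand gene of scaffold 1 (17056826 to 17058993) was 93.5% maternal over 123 exonic reads and 71.4% over 42 other reads. In 7 of the 11 genes both classes reached 80%.

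The 87 genes were spread over the assembly. Their intervals had a median length of 2219 bp (357 to 12208), against 2921 bp for the readable genes, 40 were on the plus and 47 on the minus strand, and 8 overlapped a listed gene on the other strand. They lay on all 8 main scaffolds, with 17 of 565 readable genes on scaffold 1, 10 of 294 on scaffold 2, 7 of 339 on scaffold 3 and 4 of 278 on scaffold 4. Scaffolds 5, 6, 7 and 8 held 13 of 328, 13 of 477, 13 of 368 and 10 of 342. No difference between scaffolds was tested. Some were neighbours: in 6 genes (6.9%) the nearest readable gene was also in the set, where members are 2.90% of readable genes, and 10 pairs lay within 50000 bp. In 4 pairs no other readable gene lay between. The genes on scaffold 2 at 827742 and 831700 were 2350 bp apart and the genes on scaffold 5 at 6012082 and 6015323 were 2227 bp apart, each pair on one strand. On scaffold 1 the genes at 6220399 and 6228133 were 3180 bp apart on opposite strands, and on scaffold 7 the genes at 10910368 and 10937351 were 26498 bp apart. Reads of near-identical neighbouring copies could be shared between them, which was not tested. Overlaps and neighbouring pairs were not counted over all readable genes, so whether these counts are unusual is not known.

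C. grandiflora gave an independent reading of the same genes. Of the 87, 75 were listed in pair 1, and 61 had at least 20 reads in both of its directions. The SNPs read there were different ones: no C. orientalis SNP position of these genes was listed in pair 1, and 1 gene, at 831700 on scaffold 2, had one listed in pair 2. At least 80% maternal in both directions were 12 of the 61 genes (19.7%), where 3.38% of the 12171 readable genes were. Among the 2213 genes readable in both species and outside the set, 39 (1.76%) were. With these 12, 23 genes in all (37.7%) were above the dosage in both directions, against 13.9% of all genes, and 7 were below it in both (11.5% against 17.4%). In the largest group, 31 genes (50.8%), the share was above the dosage in one direction and below it in the other, as in 67.5% of all genes. Pair 1 has 2 directions and an accession difference between them, so no test was made on it alone.

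**Figure D3:**
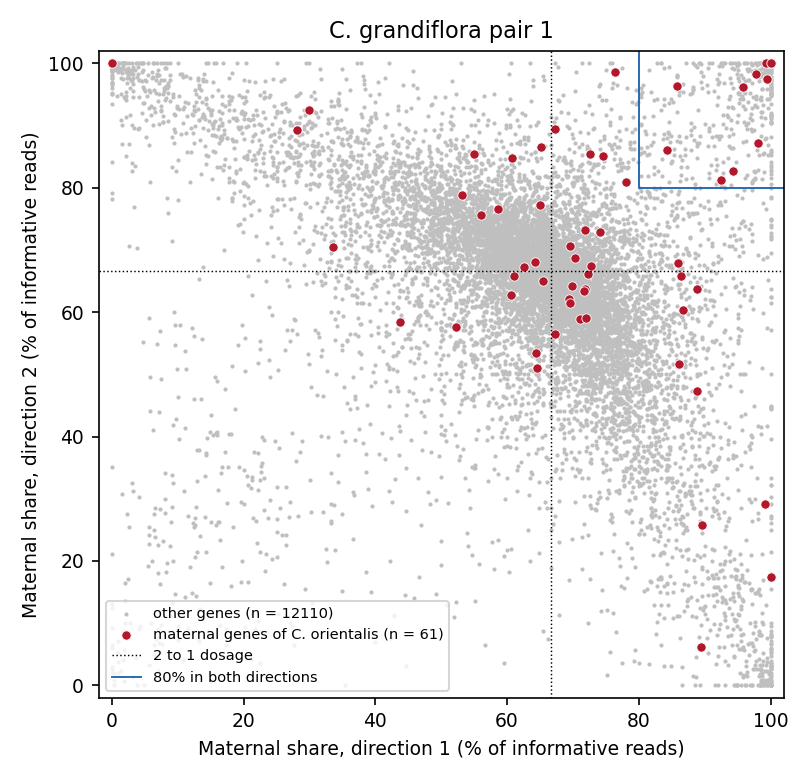
Maternal share (percent of informative reads) in direction 1 (x axis) and direction 2 (y axis) of C. grandiflora pair 1 for each gene with at least 20 reads in each direction. Red points are the 61 readable maternally expressed genes of C. orientalis, grey points the other genes, dotted lines the dosage of 66.7% and blue lines 80% in both directions, where 12 red points lie.

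The 12 genes were maternal in pair 1 by a wide margin or a narrow one. A minus-strand gene of scaffold 2 (831700 to 834459) had 210 of 210 and 250 of 250 maternal reads in pair 1, and a plus-strand gene of scaffold 3 (7121264 to 7122908) had 97 of 97 and 59 of 59. The scaffold 1 gene at 4155070 had 327 of 328 and 455 of 455, and the scaffold 3 gene at 4851456 had 273 of 275 and 155 of 155. The scaffold 6 gene at 7140391 had 625 of 639 and 937 of 953. In these 5 genes at least 97.8% of the pair 1 reads were maternal in either direction.

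Of the other 7, the scaffold 8 gene at 5893158 had 2578 of 2592 and 4376 of 4493 maternal reads. The scaffold 5 gene at 6012082 had 98.1% (96.5% to 98.9%) and 87.2% (83.4% to 90.2%), and a minus-strand gene of scaffold 8 (8945803 to 8947217) had 85.8% (83.6% to 87.7%) and 96.4% (95.7% to 97.0%). In both, the intervals of the directions do not overlap. The scaffold 7 gene at 16043956, one of those that differed between the C. orientalis replicates, had 92.4% and 81.3%. The last 3, named for being among the 12 and thus after their values were seen, were on scaffold 2 (7956761 to 7959553, minus strand) with 95.8% and 96.1%, on scaffold 8 (7884473 to 7886419, minus strand) with 84.2% and 86.0%, and on scaffold 6 (7319595 to 7321547, minus strand) with 94.3% and 82.7%.

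**Figure D4:**
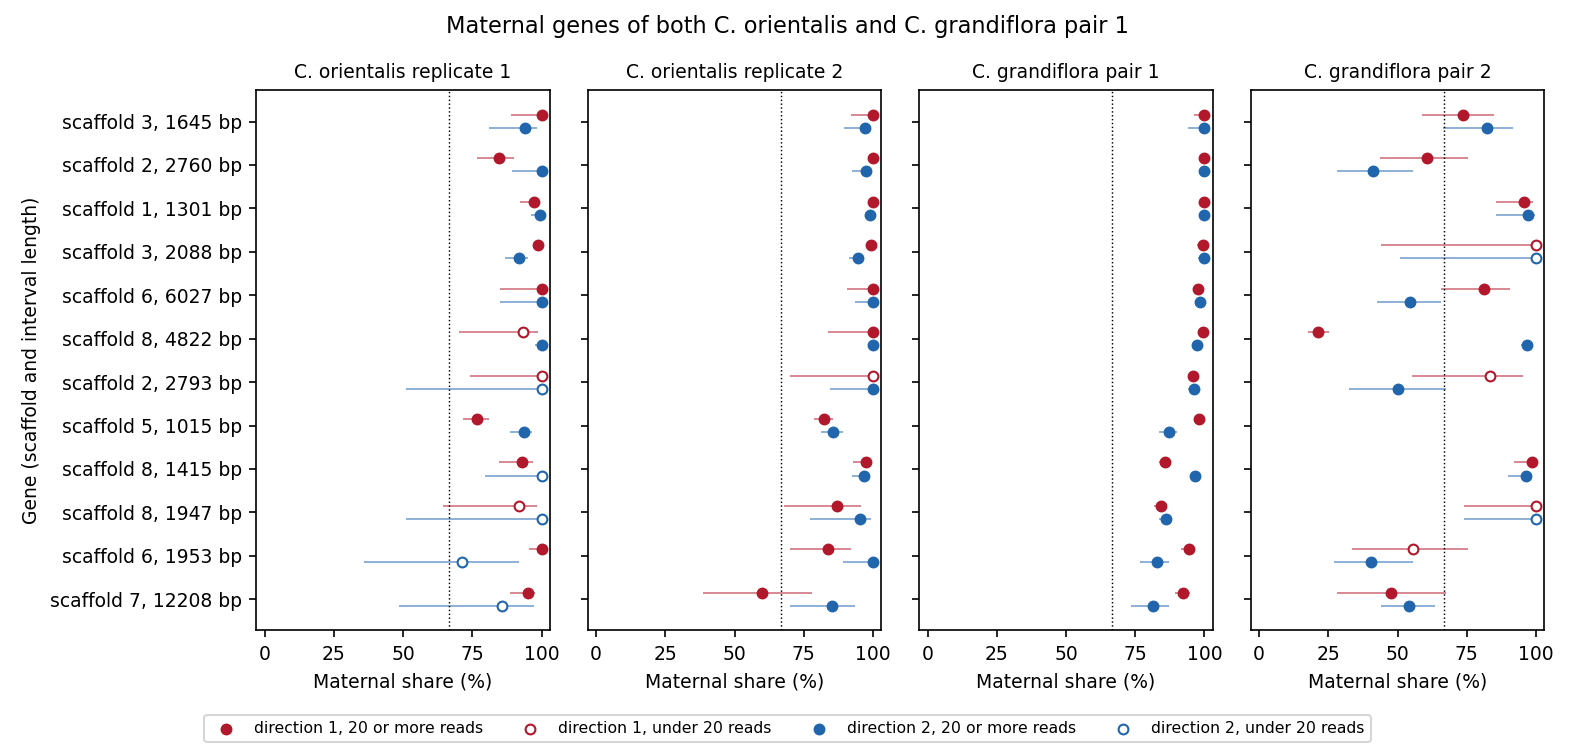
Maternal share (percent, x axis) of the 12 genes at or above 80% in both directions of C. grandiflora pair 1, in each C. orientalis replicate and each C. grandiflora pair; genes are given by scaffold and interval length. Red is direction 1, blue direction 2, open symbols have under 20 reads, lines are 95% Wilson intervals and the dotted line is the dosage of 66.7%. In pair 2 the points spread from 21.1% to 100%.

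Of the 10 readable genes with at least 95% in both C. orientalis directions, 6 reached 80% in both directions of pair 1, and their smaller share there had a median of 90.8% (29.1% to 100%). Of the other 51, 6 did, with a median of 62.2% (0% to 100%). The split at 95% was made after the values were seen, and the difference was not tested.

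The 10 genes with most reads in pair 1 ranged from near the dosage to strongly maternal there. The scaffold 8 genes at 5893158 and 8945803, given above, were strongly maternal in both directions. On scaffold 4 a gene (9596819 to 9602207, plus strand) gave 71.1% of 6483 reads and 58.9% of 5013, and the scaffold 2 gene at 827742 gave 72.5% of 2579 and 85.3% of 4052. The scaffold 1 gene at 17056826 gave 85.9% of 3160 and 68.0% of 2818. The scaffold 7 gene at 2418145 gave 71.8% of 1530 and 73.2% of 1491, above the dosage in both directions by a few points. On scaffold 8 the genes at 7326516 to 7330105 (plus strand) and 2273263 to 2275227 (minus strand) gave 71.9% and 59.0%, and 69.9% and 64.2%. On scaffold 1 a gene at 719671 to 726081 (minus strand) gave 53.2% and 78.8%, and on scaffold 7 a gene at 526033 to 530928 (plus strand) gave 58.7% and 76.5%. The last 2 overlap listed genes on the other strand. The scaffold 2 gene at 827742 is the neighbour of the gene at 831700 that was wholly maternal in pair 1.

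Pair 2 was read far less deeply than pair 1, and its reads were less maternal over all genes. The maternal share of all informative reads was 52.7% and 61.3% in directions 1 and 2 of pair 2, against 63.9% and 65.6% in pair 1, and the medians over all readable genes were 54.3% and 64.4% against 65.8% and 66.5%. The part of this library difference in the results on single genes was not tested. It listed 76 of the 87 genes, 27 had at least 20 reads in both directions, and 3 of these (11.1%) were at least 80% maternal in both, where 0.943% of 5514 readable genes were. Above the dosage in both directions were 5 (18.5% against 6.35%) and below it in both 7 (25.9% against 34.8%). The 3 were the scaffold 1 gene at 4155070, the scaffold 8 gene at 8945803 and a minus-strand gene of scaffold 1 (9766051 to 9767358) with 161 of 162 and 88 of 88 maternal reads. The third, named after its values were seen, had 12 of 12 and 45 of 48 in pair 1, too few in direction 1 to be counted there. Only 2 of the 87 genes thus passed in both pairs at 20 reads. With the minimum lowered to 10 reads, 37 genes were readable in all 4 C. grandiflora directions and 4 (10.8%) were at or above 80% in each, where 0.407% of 6389 genes were. They were these 3 genes and the scaffold 8 gene at 7884473, which had 11 of 11 in both directions of pair 2.

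The test for parental bias asked which of these genes deviated from the dosage over all 4 C. grandiflora directions. edgeR's quasi-likelihood test was fitted to all 4404 genes with at least 20 reads in every direction, 23 of them in the set, and p-values were adjusted over the 4404 by Benjamini-Hochberg. A gene was called when its adjusted p was below 0.05 and all 4 directions lay on one side of the dosage. In the set, 2 genes were called maternal (8.7% of the 23), where 0.409% of all tested genes were. None was called paternal, where 1.20% were. At an unadjusted edgeR p under 0.05, 5 of the 23 (21.7%) were maternal, where 2.18% of all tested genes were, and 1 was paternal, where 5.09% were. Above the dosage in all 4 directions lay 3 of the 23 (13%), where 1.73% of all tested genes did, and below it in all 4 lay 2 (8.7%), where 7.61% did. The median log2 deviation from the dosage was 0.13 over the 23 genes, against -0.27 over all tested genes, with 13 genes above 0 and 10 below. The other genes of the set had too few reads in a direction or no SNP in a pair, and were not tested.

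The scaffold 1 gene at 4155070 was maternal wherever it was read. Its C. grandiflora reads were 327 of 328 and 455 of 455 in pair 1 and 44 of 46 and 34 of 35 in pair 2. Its C. orientalis reads were 107 of 110 and 145 of 146 in replicate 1 and 334 of 334 and 417 of 422 in replicate 2. All 8 shares were at or above 95.7%. In C. grandiflora its log2 deviation was 6.46 ± 1.08 (SE, 4 directions in 2 pairs; edgeR adjusted p = 0.0155), and without paternal reads in a direction the size of this deviation depends on the prior count. It rested on 1 SNP in C. orientalis and on 1 and 2 in the C. grandiflora pairs.

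The scaffold 8 gene at 8945803 was the other. It gave 941 of 1097 and 2980 of 3091 maternal reads in pair 1, and 66 of 67 and 79 of 82 in pair 2. In C. orientalis it gave 66 of 71, 15 of 15, 114 of 117 and 125 of 129. Direction 1 of pair 1 was the lowest of the 8 and still well above the dosage. The log2 deviation was 3.12 ± 0.45 (SE, 4 directions in 2 pairs; edgeR adjusted p = 0.00789). Both calls were lost when direction 2 of pair 1 was left out (edgeR adjusted p = 0.439 and 0.624), when direction 1 of pair 2 was left out (0.0797 and 0.0859) and when direction 2 of pair 2 was left out (0.705 for both). They were also lost in the fit without the library block (edgeR adjusted p = 1 for both). In that fit, and in those without direction 2 of either pair, none of all tested genes was called maternal.

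**Figure D5:**
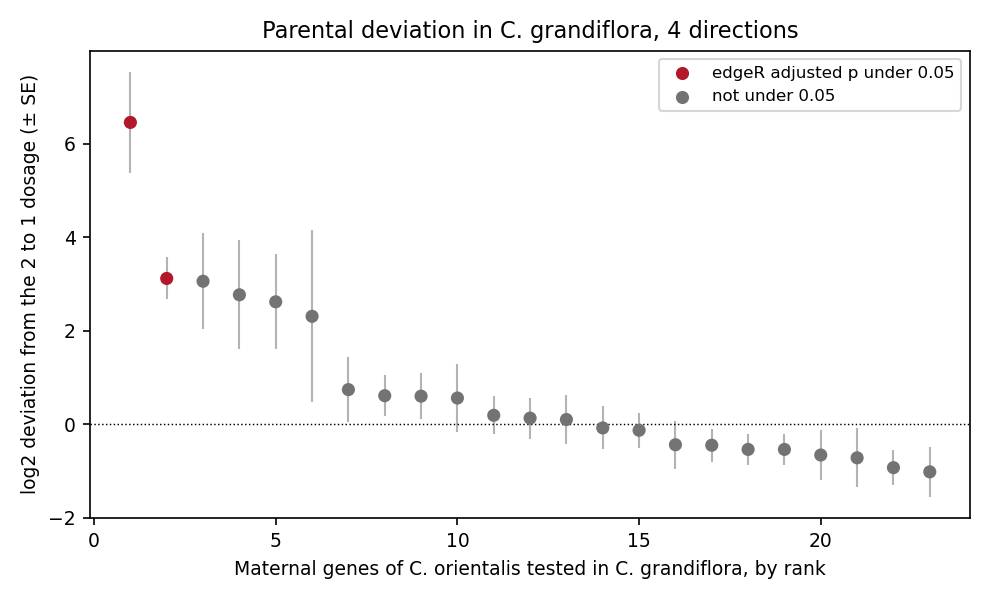
Log2 deviation from the dosage (y axis; 0 is 66.7% maternal, positive is maternal) of the 23 maternally expressed genes of C. orientalis tested in C. grandiflora, ranked from highest to lowest (x axis). Bars are ± SE from the edgeR fit over 4 directions in 2 pairs, and the 2 red points, at 6.46 and 3.12, have an adjusted p below 0.05.

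A further 4 genes had large positive deviations that did not pass the test. In each, at least 1 direction of pair 2 was well below both of pair 1. Medians over all genes were also lower in pair 2, at 54.3% and 64.4% against 65.8% and 66.5%. The part of this in these 4 genes was not tested. The scaffold 8 gene at 5893158 gave 99.5% and 97.4% in pair 1 and 96.9% (94.7% to 98.2%) of 416 reads in pair 2 direction 2, but 21.1% (17.5% to 25.2%) of 422 reads in pair 2 direction 1. Its deviation was 3.06 ± 1.03 (edgeR adjusted p = 0.411), and without that direction it was 4.93 (edgeR adjusted p = 0.0473). That direction was the gene's only one below the dosage, and leaving it out also removed the accession term of pair 2. The second value is therefore no separate evidence of a maternal bias. With no minimum beyond 1 read and all 4 directions kept, the deviation of this gene was 3.04 (edgeR adjusted p = 1.18e-13). It was still not called there, since pair 2 direction 1 lay below the dosage. The scaffold 3 gene at 7121264 gave 73.8% and 82.4% in pair 2 (deviation 2.77 ± 1.17, edgeR adjusted p = 0.63). The scaffold 6 gene at 7140391 gave 81.1% and 54.4% (2.62 ± 1.02, edgeR adjusted p = 0.562). It fell below 0.05 with DESeq2 (adjusted p = 0.0385) and with no minimum beyond 1 read (edgeR adjusted p = 0.011). The scaffold 2 gene at 831700, wholly maternal in pair 1, gave 60.6% (43.7% to 75.3%) and 41.3% (28.3% to 55.7%) in pair 2 (2.31 ± 1.84, edgeR adjusted p = 0.793).

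The deviations of the remaining tested genes ran from 0.74 to -1.02, some as the mean of opposite shares. The scaffold 8 gene at 12998737 (to 13001599, minus strand) was 90.9% and 90.7% maternal in C. orientalis. In C. grandiflora it gave 26 of 26 and 8 of 46 in pair 1 and 13 of 41 and 70 of 74 in pair 2, with a deviation of 0.74 ± 0.69. The scaffold 2 gene at 8794564 (to 8797023, minus strand) gave 78.0%, 80.9%, 28.2% and 93.7% over the 4 directions, and overlaps a listed gene on the other strand, as does the scaffold 7 gene at 16043956. The scaffold 7 genes at 10910368 (to 10910853) and 16043956 had deviations of 0.60 ± 0.49 and 0.56 ± 0.73. Nearest to 0 were the scaffold 1 gene at 6220399 (to 6224953; 0.19 ± 0.41), the scaffold 2 gene at 827742 (0.13 ± 0.44) and the scaffold 6 gene at 14843261 (to 14846585; 0.10 ± 0.53). The scaffold 1 gene at 10936167 (to 10938864; -0.08 ± 0.46) and the scaffold 7 gene at 526033 (-0.13 ± 0.38) followed. The lowest was the scaffold 1 gene at 9230446 (to 9235038, minus strand), named after its values were seen, with a deviation of -1.02 ± 0.53 and shares of 33.6%, 70.4%, 66.7% and 27.3% over the 4 directions. It too overlaps a listed gene on the other strand. None of these had an adjusted edgeR p below 0.05.

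Other deeply read C. orientalis genes were not tested in C. grandiflora, for want of reads in at least 1 direction. The scaffold 5 gene at 13454774 had 2 of 2 and 3 of 3 maternal reads in pair 1, and the scaffold 2 gene at 3275667 was not listed there. The scaffold 8 gene at 7159828 gave 87 of 101 and 46 of 89 in pair 1. The scaffold 6 gene at 15310118 gave 43 of 66 and 95 of 128 in pair 2, on either side of the dosage. The scaffold 5 gene at 6015323, without a paternal read in C. orientalis, was one of 2 genes of the set with no informative SNP in either C. grandiflora table.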

How the data were processed

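The authors deposited whole-number read counts of the maternal and the paternal allele at each SNP in each cross direction, per the file headers. The submitters' processing notes name Bismark, Bowtie2 and Trimmomatic with no role or version. No source used here gives the aligner of the RNA reads, the SNP caller, the genome build, the annotation or how repeat runs were combined. RNA libraries used a kit that does not mark strand, per the labels' protocols. A further 23 value columns of each table were not used.

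Counts were summed per gene interval (the first listed) and, for selection in C. orientalis, over both replicates. edgeR 4.0.16 (R 4.3.3) fitted 8 columns of C. grandiflora, with terms for the library (a block), for the allele's accession in each pair and for the parent of origin, and with an offset for the 2 to 1 dosage, leaving 1 residual degree of freedom. Both alleles of a direction come from 1 library, which is where the pairing comes from. The fit was tested on simulated data. Alternatives were other read minimums, SNP classes, share thresholds, scalings and designs, DESeq2 1.42.0, and leaving out replicates or directions. A C. grandiflora fit that left out a direction had no accession term for the pair of that direction.

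The members and lists were chosen with earlier results of these data known. Named genes were the 10 with most C. orientalis reads, at most 15 tested in C. grandiflora ordered by deviation, the 10 with most reads in pair 1, 3 on each side of the threshold, and the 3 widest gaps between replicates and between SNP classes; others are said to be chosen after their values were seen. Lists of tissue markers and of known imprinted genes were not used, since the intervals carry no gene names.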

Additional observations from a re-analysis of the deposited data

Results flagged for a closer look

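Among 31 sets of 4 directions examined, 3 had 1 direction far from the other 3 by Dixon's criterion on the gap over the range. Chance flags about 1 in 20 sets of normal values with equal spread. Shares are bounded and rest on unequal read counts, so the chance rate here is not known. Only named genes were examined, some of them named for wide gaps between replicates. For the scaffold 8 gene at 5893158 it was pair 2 direction 1 of C. grandiflora, with a maternal share of 21.1%. For the scaffold 8 gene at 8945803 it was pair 1 direction 1 of C. grandiflora, with 85.8%. For the scaffold 2 gene at 831700 it was replicate 1 direction 1 of C. orientalis, with 84.7%.

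In 3 of the 23 tested genes both directions of C. grandiflora pair 1 lay above the dosage and both of pair 2 below it. The share of all tested genes with this pattern was not counted, and the difference between pairs was not tested. Pair 2 was lower over all genes as well, with medians of 54.3% and 64.4% against 65.8% and 66.5% in pair 1. The mean share was 49 points higher in pair 1 for the scaffold 2 gene at 831700, 36 points higher for the scaffold 7 gene at 16043956 and 9.22 points higher for the scaffold 1 gene at 10936167.

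In 2 of the 23 tested genes (8.7%, against 7.61% of all tested genes), picked out after their values were seen, all 4 C. grandiflora directions lay below the dosage. Their C. orientalis shares lay above it by the rule of selection, and the difference between species was not tested. The scaffold 2 gene at 1739573 (to 1743241, plus strand) gave 82.9% and 86.7% in C. orientalis and 52.3%, 57.6%, 43.3% and 51.1% in C. grandiflora (log2 deviation -0.93 ± 0.38, edgeR adjusted p = 0.616). The scaffold 5 gene at 10100095 (to 10103443, plus strand) gave 90.4% and 85.7%, and 61.0%, 65.8%, 36.8% and 59.4% (log2 deviation -0.66 ± 0.53).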

How the results depend on the processing

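The number of maternal genes in C. orientalis, 87, was 143 at a minimum of 10 reads and 43 at 50, 171 at a share of 75% and 25 at 90%, and 2 on SNPs outside exons alone. Replicate 2 alone gave 93 genes, 47 of them among the 87, and replicate 1 alone 38, with 21 shared. The other alternatives gave 67 to 111 genes. Of these settings, the Wilson bound above the dosage (67) and leaving out replicate 1 direction 2 (78) were added after the data were seen. Membership changed as well: the 111 genes, from 1 SNP per gene, held 72 of the 87. Exonic SNPs alone gave 95 genes, which held 83 of the 87. The 21 genes passing in a replicate that did not select them were out of 37 readable genes selected on replicate 1 and 39 on replicate 2. At a minimum of 50 reads, 10 genes passed, out of 11 and 15. The 12 genes maternal in C. grandiflora pair 1 were 7 of 61 at a share of 90% (11.5%, against 1.82% of all genes) and 0 of 21 on SNPs outside exons alone (against 0.35%).

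The 2 edgeR calls in C. grandiflora, of 23 genes of the set tested, became 1 of 7 at a minimum of 50 reads. With no minimum beyond 1 read they became 4 of 57. Of all genes tested in these settings, 0.409%, 0.229% and 0.348% were called maternal. At 50 reads the scaffold 1 gene at 4155070 had too few reads in pair 2 to be tested. The calls became 0 of 10 with 1 SNP per gene, and 0 of 23 without the accession term and without the replicate block. Of all tested genes, 1, 0 and 0 were called maternal in these settings. In the set, 2, 3 and 2 genes had an unadjusted edgeR p under 0.05 there. Leaving out 1 direction gave 0 to 2 calls of 23, where 0% to 0.25% of all tested genes were called maternal. Without pair 2 direction 1 the single call was the scaffold 8 gene at 5893158, whose only direction below the dosage was then left out. DESeq2 called 2. Over these alternatives the deviation was 5.07 to 8.77 for the scaffold 1 gene at 4155070 and 2.90 to 4.01 for the scaffold 8 gene at 8945803, and each lost its call in 6. The causes were not tested. Depth is a limit, since 23 of the 87 genes could be tested in C. grandiflora.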
